A study of Saccharomyces cerevisiae with 10 samples.

Results

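The genes described here encode 40 yeast enzymes, or essential partners of enzymes, that modify tRNA after it is transcribed. They were taken as a list of systematic names covering the TRM methyltransferases and NCL1, the pseudouridine synthases, the adenosine deaminases, the dihydrouridine synthases, Elongator, the thiolation genes, the t6A genes SUA5 and KAE1, and MOD5, TYW1 and THG1. The rule for the list used no measured value, though earlier results of these data were known when it was made. All 40 are listed in each of the 5 tables, among 4964 genes listed in all 5 and 5373 listed in at least 1.

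The strains are derivatives of the S288C background, each represented by 1 ribosome footprint library and 1 mRNA library. AGG-OE carries the multicopy plasmid pRS426, marked with URA, into which the arginine tRNA gene tR(CCU)J was cloned. AGG-QC carries the same plasmid with tR(UCU)B, whose anticodon was changed to CCU so that its product reads AGG. WT-URA is the control for both and carries pRS426, with no tRNA gene named for it in the labels. ACA-K lacks 3 tRNA genes for the threonine codon ACA, namely tT(UGU)G2, tT(UGU)H and tT(UGU)P, which were replaced by nourseothricin, kanamycin and hygromycin B markers. Its control is wild-type yeast without a plasmid. The study asked whether tRNA abundance affects elongation and translation efficiency. With 1 library of each kind per strain there is no replicate error, no test between strains is possible, and every interval below is a 95% interval that covers counting error only.

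tRNAs are altered at many bases before they work fully in translation. Modifications of the tRNA body help it to fold and protect it from decay, and those in and beside the anticodon tune how it reads codons. Elongator adds side chains to the uridine at the wobble position of the anticodon, and in some tRNAs the URM1 pathway also puts sulphur on that base. SUA5 and KAE1 act in the making of t6A, a bulky modification beside the anticodon of tRNAs that read codons beginning with A. The threonine tRNA whose genes were deleted in ACA-K is served by Elongator and by the t6A pathway. The arginine tRNAs made from the plasmids read a codon beginning with A, but their CCU anticodons have no uridine at the wobble position for Elongator to act on.

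Footprint totals were 9127829 in AGG-OE, 6011287 in AGG-QC, 8552107 in WT-URA, 21855176 in ACA-K and 29706058 in wild-type. URA3, the plasmid marker, is listed in the 3 plasmid strains alone, with 60442 footprints in AGG-OE, 18950 in AGG-QC and 137431 in WT-URA. The 40 genes held between 66 footprints, for TAD2 in AGG-QC, and 11861, for NCL1 in wild-type. Differences between 2 strains use genes with at least 100 footprints in both. All 40 reach that number in AGG-OE, ACA-K and wild-type, 39 in WT-URA, where TAD2 has 85, and 37 in AGG-QC, where TAD2 has 66, TAD1 has 92 and NCS2 has 99. Levels are given as footprints per codon and mRNA signal per codon after a scaling that sets the median gene equal between strains, and the footprint to mRNA ratio is given relative to the median gene of wild-type. A difference is on the log2 scale and is counted when it is at least 1.5-fold.

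In wild-type the group was moderately expressed. The median of the 40 genes was 2.26 scaled footprints per codon, against 1.35 for all 5225 genes listed, and 30 of the 40 lay above that value. TRM112, NCL1 and URM1 stood at the top. TRM112 (YNR046W) is the small activator of several methyltransferases, including TRM9 and TRM11, and had 11.7 footprints per codon in wild-type from 3318 footprints. URM1 (YIL008W), the ubiquitin-like sulphur carrier, had 8.73 and NCL1 (YBL024W), the cytosine methyltransferase also called TRM4, had 8.29. The lowest were TAD1 with 0.385, TAD2 with 0.654 and MOD5 with 0.658. TAD1 (YGL243W) deaminates an adenosine of alanine tRNA, TAD2 (YJL035C) is the catalytic subunit of the enzyme that makes the wobble inosine, and MOD5 (YOR274W) attaches an isopentenyl group beside the anticodon. TAD2 and MOD5 differed by less than their counting error, with 343 and 590 footprints. The group spanned 30.3-fold in footprints per codon and 8.68-fold in mRNA signal per codon, and its lowest mRNA was that of TAD2 at 10.3.

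The footprint to mRNA ratio in wild-type was near that of other genes, with a median of 0.963 and 18 of 40 genes above the all-gene value. It was highest for TRM112 at 2.03 and NCL1 at 1.97. It was lowest for TAD1 at 0.267 and for THG1 at 0.273. THG1 (YGR024C), which adds the extra guanosine that histidine tRNA needs, thus had one of the higher mRNA signals of the group, 79.9 per codon, and 1.47 footprints per codon.

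The clearest difference lay between the plasmid strains and the others. The median of the 40 genes stood at percentile 49.5 of all genes by footprints per codon in AGG-OE, 43.6 in AGG-QC and 45.5 in WT-URA, against 62.5 in ACA-K and 62.4 in wild-type. By mRNA signal the median percentiles were 54.5, 42.5 and 45.1 in AGG-OE, AGG-QC and WT-URA, against 66.6 in ACA-K and 65.6 in wild-type. These ranks are taken within a strain and do not depend on how strains are scaled to each other. The group took 0.282% of all footprints in AGG-OE, 0.238% in AGG-QC and 0.237% in WT-URA, against 0.373% in ACA-K and 0.370% in wild-type.

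**Figure D1:**
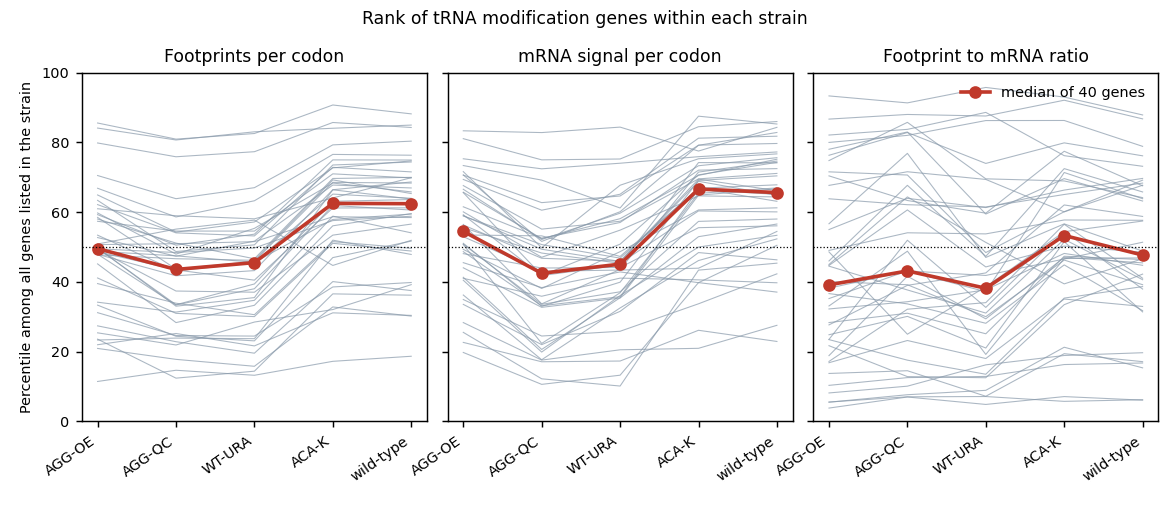
Percentile of each of the 40 genes among all genes listed in its strain (vertical axis, 0 to 100), for footprints per codon, mRNA signal per codon and their ratio; grey lines are genes, the red line is their median. The red line lies below 50 in the 3 plasmid strains for footprints, between 43.6 and 49.5, and above 62 in ACA-K and wild-type.

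Footprints of 37 of the 40 genes were lower in all 3 plasmid strains than in both strains without a plasmid (92.5%, where 32.8% of the 4964 genes were lower in the same way). The 3 exceptions were TAD1, whose 5 values ran from 0.340 to 0.405, the dihydrouridine synthase DUS4 (YLR405W), and THG1, the 1 gene that was higher in all 3 plasmid strains (36.1% of all genes were). For mRNA the count was 33 of 40 (82.5%, background 31.4%), none was higher in that way (background 35%), and the 7 that overlapped were DEG1, TAD1, TAD2, TAD3, DUS4, MOD5 and THG1. For the footprint to mRNA ratio 18 of 40 were lower (45.0%, background 24.5%) and 2, URM1 and THG1, were higher (background 19.8%). With each library scaled to its total in place of the median gene, the counts were 30 of 40 for footprints (16.2% of genes) and 21 of 40 for mRNA (16.9%). The study states rich medium for its wild-type data and -URA selection for the transformation that gave AGG-OE. The sources used here do not say in which medium the plasmid strains were grown for profiling. They also do not say whether the preparation of the libraries differed between these strains. The plasmid and any such difference cannot be told apart.

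**Figure D2:**
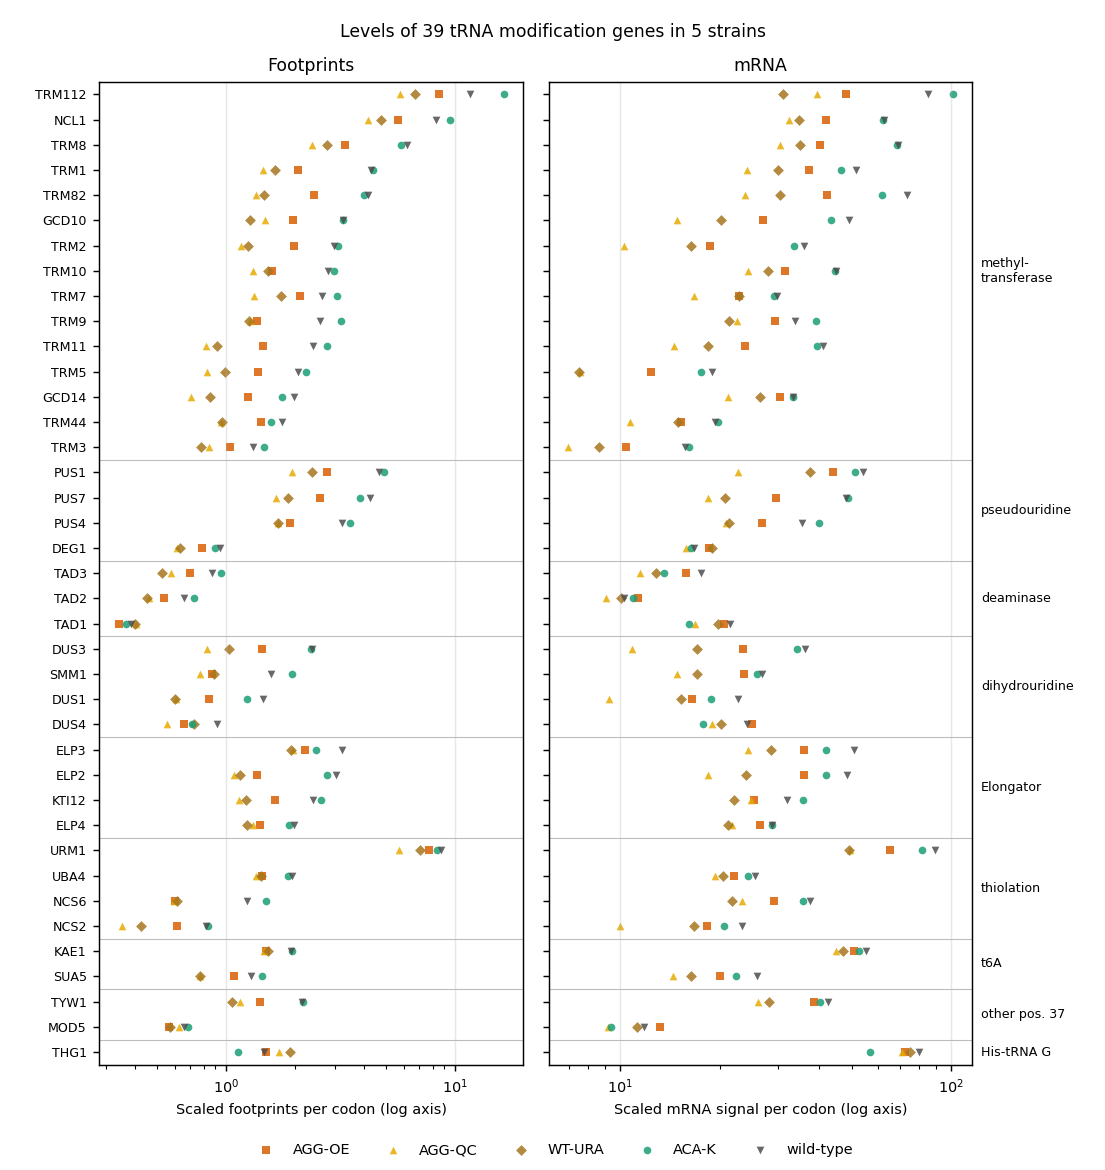
Scaled footprints per codon (left) and scaled mRNA signal per codon (right), both on log axes, for 39 of the 40 genes, ordered by class and, within a class, by wild-type footprints; each symbol is 1 library of the strain in the legend. Orange and brown symbols of AGG-OE, AGG-QC and WT-URA lie left of the green and grey symbols of ACA-K and wild-type in 36 rows on the left.

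In WT-URA against wild-type, 31 of the 39 genes compared had lower footprints by at least 1.5-fold and none had higher ones. Of all 4621 genes compared, 15.8% were lower and 15.9% higher by that much. The median difference was -0.94 for the 39 genes and 0.02 for all genes. mRNA was lower for 23 of the 39 and higher for none, with 14.1% of all genes lower and 14.1% higher, and the median was -0.67. The methyltransferases stood out as a class, with all 15 lower in footprints and 12 lower in mRNA. All 5 Elongator genes, 4 for subunits and the regulator KTI12, were lower in footprints and 3 of them in mRNA. Among the smaller classes, footprints were lower for 3 of 4 pseudouridine synthases, 3 of 4 dihydrouridine synthases, 2 of 4 thiolation genes and 1 of 2 t6A genes. Scaling to the total moved the median of all genes in this comparison to 0.36 for footprints and 0.28 for mRNA, which left 20 of the 39 genes lower in footprints and 1 higher, while 8.92% of all genes were lower and 33.4% higher.

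TRM82, TRM1, ELP2 and TRM11 had the largest falls in footprints. TRM82 (YDR165W) is the partner of the methyltransferase TRM8, which makes 7-methylguanosine, and had 2.42 footprints per codon in AGG-OE, 1.36 in AGG-QC, 1.47 in WT-URA, 4.03 in ACA-K and 4.17 in wild-type. Its difference in WT-URA against wild-type was -1.50 with a counting interval of -1.64 to -1.36. TRM1 (YDR120C), which dimethylates a guanosine between the D and anticodon arms, had 2.07, 1.45 and 1.64 in AGG-OE, AGG-QC and WT-URA, against 4.40 in ACA-K and 4.32 in wild-type, and its difference was -1.40. The 3 plasmid libraries were low and did not reach the other pair for either gene. ELP2 (YGR200C), a scaffold subunit of Elongator, had a difference of -1.39, with 1.37, 1.09 and 1.15 in AGG-OE, AGG-QC and WT-URA, against 2.76 in ACA-K and 3.02 in wild-type. TRM11 (YOL124C), the catalytic partner of TRM112 that methylates a guanosine of the D arm, had 1.46, 0.817 and 0.917 in AGG-OE, AGG-QC and WT-URA, against 2.76 in ACA-K and 2.39 in wild-type, and its difference was -1.38.

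By mRNA the farthest falls were those of TRM112, TRM5, GCD10 and TRM82. The mRNA signal of TRM112 was 48.0 per codon in AGG-OE, 39.4 in AGG-QC and 31.1 in WT-URA, against 101.3 in ACA-K and 85.3 in wild-type, a difference of -1.46 between WT-URA and wild-type. TRM5 (YHR070W), which methylates the guanosine next to the anticodon, had 12.4, 7.56 and 7.51 in AGG-OE, AGG-QC and WT-URA, against 17.6 in ACA-K and 18.9 in wild-type, a difference of -1.33. In both genes every plasmid library was low. GCD10 (YNL062C), a subunit with GCD14 of the methyltransferase that makes 1-methyladenosine in the T loop, had 27.0, 14.9 and 20.2 in AGG-OE, AGG-QC and WT-URA, against 43.3 in ACA-K and 49.3 in wild-type, a difference of -1.29. The difference of TRM82 was -1.27, with 42.0, 23.8 and 30.3 in AGG-OE, AGG-QC and WT-URA, against 61.9 in ACA-K and 73.3 in wild-type. DEG1 (YFL001W), the pseudouridine synthase also called PUS3, was the 1 gene whose mRNA difference was above 0, at 0.19.

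THG1 went against the group in footprints, and TAD1 did not follow the group. THG1 had 1.498 footprints per codon in AGG-OE, 1.71 in AGG-QC and 1.91 in WT-URA, against 1.13 in ACA-K and 1.47 in wild-type. In AGG-OE it had 269 footprints, with a counting interval of 238 to 303, and its gap to wild-type lay within counting error. The difference of THG1 in WT-URA against wild-type was 0.38 with an interval of 0.19 to 0.57, short of 1.5-fold, while its mRNA difference was -0.09. TAD1 had a difference of 0.05 in footprints, with an interval from -0.26 to 0.36.

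The footprint to mRNA ratio differed less. In WT-URA against wild-type it was higher past 1.5-fold for 1 of 39 genes and lower for 4, where 4.91% of all genes were higher and 3.53% lower, and the median was -0.17. With the first 100 codons left out and a pseudo-count of 1, none of these 5 genes was past 1.5-fold, TRM112 and DUS1 changed direction, and 5 other genes were higher and none lower, where 11.0% of all genes were higher and 15.97% lower. With those codons left out and no pseudo-count, 4 of the 5 stayed past 1.5-fold, and only TRM112 changed direction. In that setting 1 of 39 genes was higher and 6 lower, where 5.35% of all genes were higher and 7.47% lower. GCD14 (YJL125C) had a relative ratio of 0.611 in AGG-OE, 0.493 in AGG-QC and 0.478 in WT-URA, against 0.785 in ACA-K and 0.886 in wild-type, so that WT-URA was lower than wild-type by 0.89 on the log2 scale. The ratio of DEG1 was 0.633, 0.574 and 0.493 in AGG-OE, AGG-QC and WT-URA, against 0.810 in ACA-K and 0.836 in wild-type, a difference of -0.76 between WT-URA and wild-type. In both genes mRNA was closer to wild-type than footprints were. DUS1 (YML080W), a dihydrouridine synthase, had a difference of -0.70, with 0.765, 0.966 and 0.584 in AGG-OE, AGG-QC and WT-URA, against 0.974 in ACA-K and 0.950 in wild-type. Here WT-URA was low and AGG-QC overlapped the strains without a plasmid. The difference of TRM1 was -0.62, with 0.827, 0.895 and 0.810 in AGG-OE, AGG-QC and WT-URA, against 1.40 in ACA-K and 1.24 in wild-type. The ratio of TRM112 was 2.65 in AGG-OE, 2.16 in AGG-QC and 3.20 in WT-URA, against 2.40 in ACA-K and 2.03 in wild-type, and differed by 0.65 between WT-URA and wild-type. The coding sequence of TRM112 has 136 codons. With the first 100 codons left out and no pseudo-count this difference was -0.16, so its direction rests on footprints near the start.

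**Figure D3:**
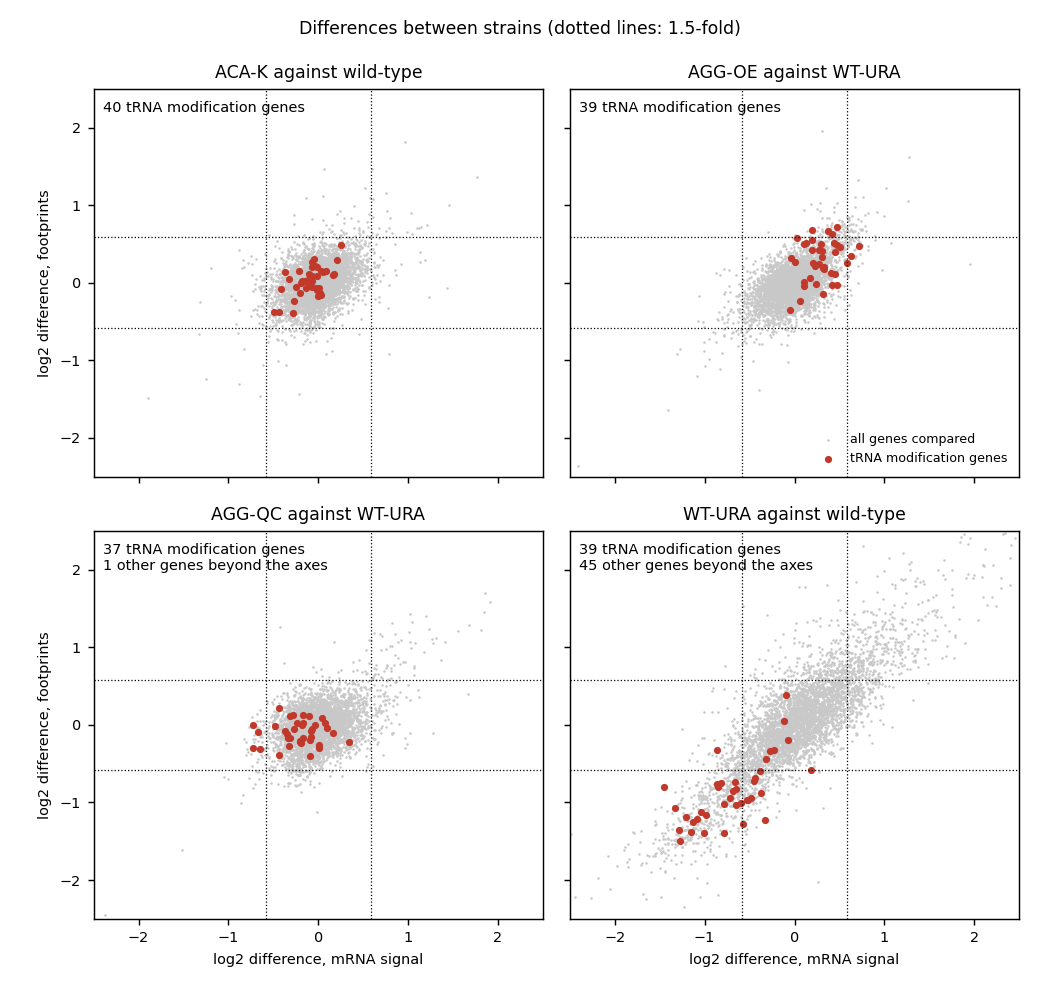
Log2 difference in footprints (vertical) against log2 difference in mRNA signal (horizontal) for the 4 comparisons; grey points are all genes compared, red points the tRNA modification genes, and dotted lines mark 1.5-fold. In WT-URA against wild-type 31 red points lie below the lower dotted line, and in ACA-K against wild-type none lies beyond any line.

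AGG-OE and AGG-QC share the WT-URA libraries as their control, and WT-URA is also the strain set against wild-type above, so these comparisons are not independent of each other. In AGG-OE against WT-URA the group lay higher. The median difference was 0.30 in mRNA and 0.33 in footprints, both near 0 for all genes, and 37 of 39 genes lay above 0 in mRNA and 32 of 39 in footprints, where 50.1% and 50.7% of all genes did. Past 1.5-fold, 2 of 39 genes were higher in mRNA and none lower, where 2.03% of all genes were higher and 1.72% lower. In footprints 4 of 39 were higher and none lower, where 2.84% of all genes were higher and 1.5% lower. All 15 methyltransferases, all 5 Elongator genes and all 4 pseudouridine synthases lay above 0 in footprints. Scaled to the total, the medians were 0.21 and 0.23 and 1 gene passed 1.5-fold in each measure.

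The 4 genes past 1.5-fold in footprints were methyltransferases or their partners. TRM82 differed by 0.72 between AGG-OE and WT-URA, with an interval of 0.55 to 0.88, from 812 footprints in AGG-OE and 491 in WT-URA. TRM2 (YKR056W), which makes the ribothymidine of the T loop, had 1.99 footprints per codon in AGG-OE, 1.17 in AGG-QC, 1.24 in WT-URA, 3.08 in ACA-K and 2.97 in wild-type, and differed by 0.68. TRM11 differed by 0.67 and GCD10 by 0.63, with 1.96 footprints per codon for GCD10 in AGG-OE and 1.27 in WT-URA. In these 4 genes AGG-OE lay between the other plasmid strains and the strains without a plasmid. They were picked for footprints higher in AGG-OE than in WT-URA, which largely fixes this order. Other genes of the group, such as TRM1, TRM8 and NCL1, had the same order, while KAE1 did not. The order thus does not set the 4 genes apart, and it was not counted over all genes. The counting intervals of all 4 reach below 1.5-fold, and TRM82 was the 1 that stayed past it when scaled to the total. In mRNA the 2 genes were TRM5, at 0.72, and TRM112, at 0.63. None of 39 passed 1.5-fold in the ratio (1.96% of all genes did), for which SMM1 (YNR015W), a dihydrouridine synthase also called DUS2, was lowest at -0.50 and TRM44 (YPL030W), which methylates a ribose of serine tRNAs, was highest at 0.54.

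In AGG-QC against WT-URA footprints differed little, with 0 of 37 genes past 1.5-fold (3.51% of all genes in either direction) and a median of -0.09. The extremes were DUS4 at -0.40, from 115 footprints in AGG-QC and 200 in WT-URA, and GCD10 at 0.22. mRNA was lower past 1.5-fold for 4 of 37 genes and higher for none, where 1.43% of all genes were lower and 3.42% higher, and 30 of the 37 lay below 0, as did 52.1% of all genes. PUS1 (YPL212C), a pseudouridine synthase with many sites, had an mRNA signal per codon of 22.7 in AGG-QC and 37.6 in WT-URA, a difference of -0.72, and AGG-OE had 44.0. DUS1 had 9.28 in AGG-QC, the lowest of the 5 strains, and 15.3 in WT-URA, also a difference of -0.72. The difference of TRM2 was -0.67, with 10.3 in AGG-QC and 16.4 in WT-URA. That of DUS3 (YLR401C) was -0.65, with 10.8 in AGG-QC and 17.1 in WT-URA. In all 4 genes AGG-QC had the lowest mRNA signal of the 5 strains, but they were picked for low mRNA in AGG-QC. AGG-QC was also lowest in many other genes of the group, such as TRM1, TRM8, NCL1 and ELP2. In some, such as TRM5 and TRM112, WT-URA was lowest. Being lowest in AGG-QC thus does not set the 4 genes apart, and it was not counted over all genes. NCS2 (YNL119W), the thiolation subunit that missed the footprint minimum by 1, had an mRNA difference of -0.74. The ratio was higher past 1.5-fold for DUS1, at 0.73, and GCD10, at 0.66, and lower for none, where 1.95% of all genes were higher and 2.68% lower, while TRM112 was lowest at -0.57.

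In ACA-K against wild-type no gene of the 40 passed 1.5-fold in mRNA, footprints or their ratio, where 2.58%, 2.74% and 3.59% of all 4814 genes did. Footprint differences ran from -0.39 for ELP3 to 0.49 for TRM112. ELP3 (YPL086C), the catalytic subunit of Elongator, had 2.47 footprints per codon in ACA-K and 3.23 in wild-type, an interval of -0.47 to -0.31 around the difference. TRM112 had 16.4 in ACA-K and 11.7 in wild-type. mRNA differences ran from -0.49 for THG1, with 56.9 in ACA-K and 79.9 in wild-type, to 0.25 for TRM112, and 30 of 40 genes lay below 0, as did 50.4% of all genes. Ratios lay above 0 for 31 of 40 genes (50.4% of all genes), with a median of 0.11, from -0.19 for TRM44 to 0.51 for TAD3 (YLR316C), the partner of TAD2 in the inosine enzyme. The relative ratio of TAD3 was 1.04 in ACA-K and 0.731 in wild-type.

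The genes of the wobble uridine and t6A pathways are described 1 by 1 because they act in or beside the anticodon. ELP4 (YPL101W), of the Elongator subcomplex that binds ATP, had 1.40, 1.31 and 1.23 in AGG-OE, AGG-QC and WT-URA, against 1.89 in ACA-K and 1.98 in wild-type. KTI12 (YKL110C), an Elongator regulator, had 1.64, 1.14 and 1.23 in AGG-OE, AGG-QC and WT-URA, against 2.59 in ACA-K and 2.41 in wild-type. In both the plasmid strains were low. WT-URA differed from wild-type by -0.97 for KTI12, -0.75 for ELP3 and -0.68 for ELP4, and none of the 5 Elongator genes passed 1.5-fold in the other comparisons in any measure.

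The thiolation genes did not move alike. NCS6 (YGL211W) had 0.600 footprints per codon in AGG-OE, 0.593 in AGG-QC and 0.612 in WT-URA, against 1.49 in ACA-K and 1.24 in wild-type. NCS2, its partner in the thiolase, had 0.609, 0.354 and 0.427 in AGG-OE, AGG-QC and WT-URA, against 0.832 in ACA-K and 0.818 in wild-type. The difference in WT-URA against wild-type was -1.02 for NCS6 and -0.94 for NCS2. UBA4 (YHR111W), which activates URM1, had 1.44, 1.35 and 1.42 in AGG-OE, AGG-QC and WT-URA, against 1.86 in ACA-K and 1.94 in wild-type, and differed by -0.45. URM1 itself had 7.67, 5.68 and 7.01 in AGG-OE, AGG-QC and WT-URA, against 8.36 in ACA-K and 8.73 in wild-type, and differed by -0.32. Its mRNA differed by -0.87, and its relative ratio was 1.75, 1.71 and 2.12 in AGG-OE, AGG-QC and WT-URA, against 1.52 in ACA-K and 1.45 in wild-type. The coding sequence of URM1 has 100 codons. Codons 1 to 20 held 38.0% of its footprints in AGG-OE, 32.2% in AGG-QC and 41.7% in WT-URA, against 20.6% in ACA-K and 23.7% in wild-type. Its footprints and ratio in the plasmid strains thus draw more on the start of the gene. Of the t6A genes, SUA5 (YGL169W) had 1.09 footprints per codon in AGG-OE, 0.769 in AGG-QC and 0.769 in WT-URA, against 1.43 in ACA-K and 1.29 in wild-type. KAE1 (YKR038C) varied least of the wobble uridine and t6A genes, with 1.49, 1.47 and 1.53 in AGG-OE, AGG-QC and WT-URA, against 1.94 in ACA-K and 1.92 in wild-type.

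Several of the enzymes work as complexes, and a quotient of partners within a library does not depend on the scaling between strains. The quotient of TAD2 to TAD3 footprints per codon was 0.772 in AGG-OE, 0.809 in AGG-QC, 0.861 in WT-URA, 0.763 in ACA-K and 0.755 in wild-type, with counting intervals that overlap throughout. UBA4 stood at 0.188 to 0.238 of URM1 in the 5 strains. ELP2 to ELP3 split by plasmid, with quotients of 0.621, 0.555 and 0.600 in AGG-OE, AGG-QC and WT-URA, against 1.12 in ACA-K and 0.937 in wild-type. The quotient of their mRNA signals was 0.996, 0.762 and 0.836 in the plasmid strains, against 1.01 and 0.954, and AGG-OE overlapped the strains without a plasmid. A further Elongator pair, ELP4 to ELP3, did not split in footprints. Its quotients were 0.634, 0.669 and 0.641 in AGG-OE, AGG-QC and WT-URA, against 0.765 in ACA-K and 0.613 in wild-type. NCS2 to NCS6 was 1.01 in AGG-OE, with an interval of 0.826 to 1.25. It was 0.698 in WT-URA, with an overlapping interval of 0.557 to 0.873. It was 0.596 in AGG-QC, 0.557 in ACA-K and 0.658 in wild-type. The quotient of their mRNA signals was 0.627 in AGG-OE, 0.430 in AGG-QC and 0.765 in WT-URA, against 0.578 in ACA-K and 0.622 in wild-type. GCD10 to GCD14 ran from 1.49 in WT-URA to 2.10 in AGG-QC by footprints, while the quotient of their mRNA signals was 0.887 in AGG-OE, 0.703 in AGG-QC and 0.763 in WT-URA, against 1.30 in ACA-K and 1.48 in wild-type. For this pair the mRNA split by plasmid and the footprints did not. TRM8 to TRM82 ran from 1.37 in AGG-OE to 1.88 in WT-URA.

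**Figure D4:**
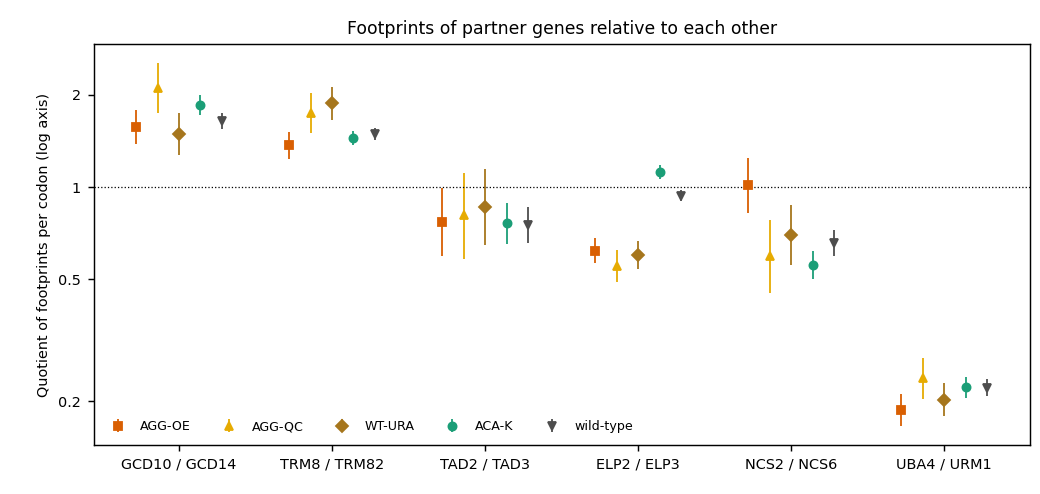
Quotient of scaled footprints per codon between partner genes (log axis) in each strain, with 95% intervals for counting error; the dotted line marks equal values. The quotient of ELP2 to ELP3 lies between 0.555 and 0.621 in the plasmid strains and at 1.12 and 0.937 in ACA-K and wild-type, while that of TAD2 to TAD3 overlaps in all 5.

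TRM112 serves 4 methyltransferases in yeast, the tRNA enzymes TRM9 and TRM11, MTQ2, which methylates a release factor, and BUD23, which methylates ribosomal RNA. Its footprints per codon were 1.49 times the sum of those 4 in AGG-OE, 1.29 in AGG-QC and 1.35 in WT-URA, against 1.28 in ACA-K and 1.09 in wild-type. The first 100 of its 136 codons held 84.8% of its footprints in AGG-OE, 85.1% in AGG-QC and 85.6% in WT-URA, against 74.8% in ACA-K and 68.8% in wild-type.

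Where the footprints lay along the genes also differed with the plasmid. The density in the first 20 codons over that beyond codon 100 had a median over the group of 3.41 in AGG-OE, 3.22 in AGG-QC and 4.80 in WT-URA, against 0.907 in ACA-K and 0.862 in wild-type. For all genes it was 3.57, 3.42 and 4.60 in the plasmid strains, against 1.09 and 1.04, so the group followed the whole table. The codon with the most footprints lay within the first 20 for 23 of 40 genes in AGG-OE, 22 in AGG-QC and 27 in WT-URA, against 3 in ACA-K and 6 in wild-type. The same count was not made over all genes, so it does not set this group apart. With the first 100 codons left out and a pseudo-count of 1, 21 of 39 genes were lower past 1.5-fold in WT-URA than in wild-type and 1 was higher, where 21.8% of all genes were lower and 16.7% higher. With no pseudo-count, an alternative added after the data were seen, 30 of 39 were lower and 1 higher, where 17.0% of all genes were lower and 14.9% higher, and 38 of 40 were lower in all plasmid strains, where 31.7% of the 4964 genes were.

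TRM11 was the 1 gene whose highest codon, the second of the coding sequence, was the same in all 5, for 11 genes it was shared by 3 strains, for 24 by 2, and for 4 by none. Where codons tied for the most footprints the first was taken, and such sharing was not counted over all genes. ELP3 had a tall peak at codon 347 in the strains without a plasmid, with 88 of 2057 footprints (4.28%) in ACA-K and 321 of 3761 (8.53%) in wild-type. The same codon held 3 of 932 in AGG-OE, 2 of 621 in AGG-QC and 3 of 804 in WT-URA. Without it, ELP3 differed by -0.62 between WT-URA and wild-type and by -0.32 between ACA-K and wild-type. THG1 had such a peak at codon 96, with 74 of 403 footprints (18.4%) in ACA-K and 47 of 729 (6.45%) in wild-type, against 1 of 269 in AGG-OE, 0 of 231 in AGG-QC and 3 of 340 in WT-URA. Without that codon THG1 differed by 0.46 between WT-URA and wild-type and by -0.57 between ACA-K and wild-type.

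DEG1 had the opposite pattern at codon 13, which held 12.5% of its 264 footprints in AGG-OE, 10.5% of 153 in AGG-QC and 11.0% of 209 in WT-URA, against 1.69% of 593 in ACA-K and 1.49% of 870 in wild-type. In TRM2 the start of the listed coding sequence was empty. No footprint fell in its first 38 codons in any strain, although the gene had from 423 in AGG-QC to 3966 in wild-type, and the first codon with a footprint was 44 in AGG-OE, 39 in AGG-QC, 41 in WT-URA, 54 in ACA-K and 49 in wild-type. Of 4191 genes longer than 100 codons with at least 100 footprints in every strain, 8 (0.191%) had those 38 codons empty throughout, and TRM2 was the 1 among the genes described here. These codons were chosen after their values were seen.

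**Figure D5:**
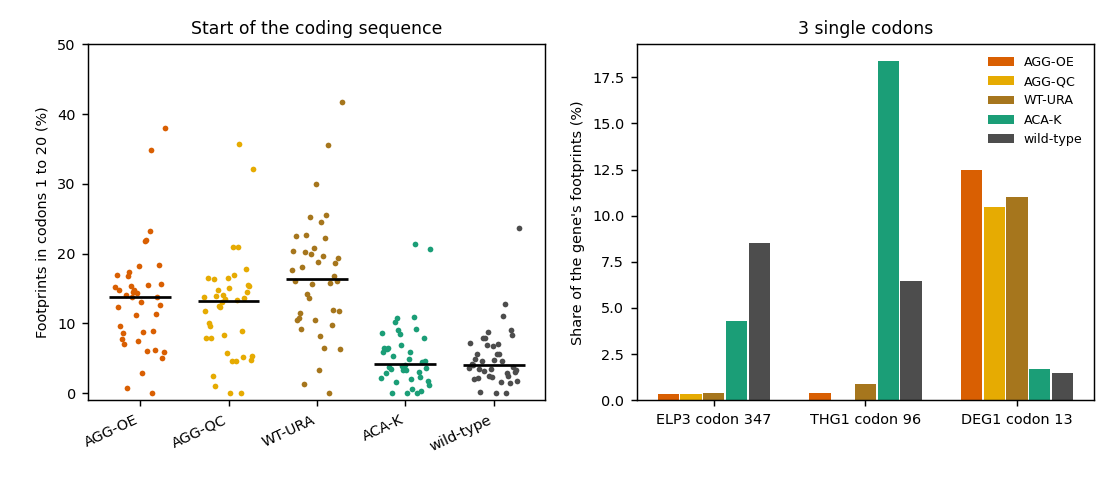
Left, share of each gene's footprints in codons 1 to 20 (%), with 1 point per gene and a black line at the median, by strain. Right, share of the gene's footprints (%) at codon 347 of ELP3, codon 96 of THG1 and codon 13 of DEG1, with bars by strain; the first 2 codons are high in ACA-K and wild-type, and codon 13 of DEG1 is high in AGG-OE, AGG-QC and WT-URA.

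Other genes of the tRNA pathway, a list of 43 further modification, splicing and export genes of which 41 are listed in all tables, differed less in WT-URA against wild-type. Of the 36 compared, 7 were lower past 1.5-fold in footprints and none higher, with a median of -0.30, where 15.8% of all genes were lower and 15.9% higher. In mRNA 10 were lower, with a median of -0.22, where 14.1% of all genes were lower. KRE33, which acetylates tRNA and ribosomal RNA, was farthest, with differences of -1.80 in mRNA and -1.38 in footprints. In AGG-OE against WT-URA it lay 0.64 higher in mRNA and 0.67 higher in footprints. Of the Elongator regulators, SAP185 was lower in WT-URA than in wild-type by 0.99 in footprints, DPH3 was lower by 0.79 in footprints, and ATS1 was lower by 1.08 in mRNA. RTT10, the partner of the ribose methyltransferase TRM7, was lower by 0.92 in footprints there and lay 0.68 lower in mRNA in AGG-QC than in WT-URA. SEN54, a subunit of the tRNA splicing endonuclease, had a footprint to mRNA ratio higher by 0.95 in WT-URA against wild-type and by 0.69 in ACA-K against wild-type, and lower by 0.65 in AGG-OE against WT-URA. ABP140, also called TRM140, was lower by 0.62 in footprints in AGG-OE than in WT-URA. In ACA-K against wild-type none of the 40 compared passed 1.5-fold in mRNA or footprints, and 3 were higher in the ratio, where 2.31% of all genes were.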

How the data were processed

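Ribosome footprints and poly(A)-selected mRNA from 5 strains (10 libraries) were analysed. The authors aligned reads with Bowtie 1.0.0 (processing notes) to yeast assembly R63, kept uniquely mapped reads, filtered genes, and deposited footprint counts that were not normalised, for every codon and summed by gene. The deposited mRNA signal is a whole number for each gene. Its unit is not stated, so it has no interval. Footprint counts ranged from 6011287 to 29706058 per library.

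Footprints and mRNA were scaled by the median of ratios over 4334 genes with at least 100 footprints in every strain. Differences were computed for genes with 100 footprints in both strains. Intervals are exact (Poisson counts, or conditional binomial for quotients) and cover counting error only. Lengths in codons include the stop codon. Alternatives were scaling to the total, no minimum, leaving out the first 100 codons (the first 25% in shorter genes) with a pseudo-count of 1, leaving out the highest codon, and, added after seeing the data, no pseudo-count and no stop codon. No test was planned, as each strain has 1 library of each kind.

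Genes named are the 4 farthest in each direction past 1.5-fold per comparison and measure, or the farthest in each direction where none passed, the 3 highest and 3 lowest in wild-type, the Elongator, thiolation and t6A genes, and other pathway genes past 1.5-fold in at least 2 comparisons. The genes and lists were chosen with earlier results of these data known. Codons and partner pairs were chosen after their values were seen. All 40 genes matched a RefSeq gene table (assembly R64), used for symbols alone. The values of 1 gene enter the counts and medians and are not reported here. The planned description of promoter motifs was not made, and sequences were not used here. The scaling was tested on simulated data. Tools were pandas 2.3.3, scipy 1.17.1 and numpy 2.4.6 under Python 3.11.15, with figures by matplotlib 3.10.9.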

Additional observations from a re-analysis of the deposited data

How the results depend on the processing

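No paired analysis was possible because each strain has 1 library of each kind. Counts past 1.5-fold not given here stayed within 1.5 times the value above, and medians within 0.1. With scaling to the total, genes past 1.5-fold in AGG-OE against WT-URA numbered 1 in mRNA and 1 in footprints, those in mRNA of WT-URA against wild-type numbered 14, and the medians of WT-URA against wild-type were -0.40 in mRNA and -0.60 in footprints. The median ratio of AGG-QC against WT-URA was 0.17 with that scaling and 0.16 with no minimum of footprints. With the first 100 codons left out and a pseudo-count of 1, which draws genes with few footprints per codon towards each other, 0 genes passed 1.5-fold in footprints of AGG-OE against WT-URA (median 0.14; median ratio -0.15), 4 in the ratio of AGG-QC against WT-URA (median 0.19) and 2 in the ratio of ACA-K against wild-type. The medians of WT-URA against wild-type were then -0.64 in footprints and 0.14 in the ratio, and 5 genes were higher and none lower past 1.5-fold in the ratio, against 1 higher and 4 lower in the report. None of those earlier 5 was among them, with ratios of 0.23 for DUS1, -0.46 for TRM112, -0.42 for TRM1, -0.42 for GCD14 and -0.17 for DEG1. Of these 5, 4 stayed past 1.5-fold with the first 100 codons left out and no pseudo-count. Without the pseudo-count, the counts past 1.5-fold were 1 in footprints and 1 in the ratio of ACA-K, 1 in the ratio of AGG-OE, 2 in footprints of AGG-QC and 5 in the ratio of AGG-QC. Without the highest codon of each gene, 7 genes passed in footprints of AGG-OE and 4 in the ratio of AGG-QC. Of the 31 genes lower in footprints of WT-URA against wild-type, 20 remained past 1.5-fold with scaling to the total, 20 with the first 100 codons left out and the pseudo-count, where NCS2 was at 0.12, and 29 without the pseudo-count. Where a count is 0 to 5, a few genes near 1.5-fold decide it. Genes with about 100 footprints, such as TAD1, TAD2 and NCS2 in AGG-QC, have wide intervals, from -0.39 to 0.42 for TAD1, -0.45 to 0.52 for TAD2 and -0.65 to 0.10 for NCS2 in AGG-QC against WT-URA. The mRNA values carry an unknown counting error, and none of the differences has a replicate check.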
